A study of Mus musculus with 8 samples.

Results

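The early transposons of the mouse (ETn) were taken as the elements that the deposited repeat table assigns to the families MMETn-int, ETnERV2-int, ETnERV-int and ETnERV3-int, where "int" is the internal part of a retrovirus-like element without its long terminal repeats. Elements on random scaffolds of the mm9 build were left out. This gave 105 elements of the 17857 in the table, in 4 of its 65 families. The shortest element listed is 5001 bp long, so shorter copies and shorter repeats enter none of the counts, sums and ranks below. There were 77 ETnERV2-int, 15 MMETn-int, 11 ETnERV3-int and 2 ETnERV-int elements. A further 2 MMETn-int elements lie on random scaffolds and had 0 reads. The families were chosen by name and not by their reads, but with earlier results of these data known.

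Early transposons are retrotransposons of the ERVK class, named for their transcription in the early mouse embryo and in embryonic stem cells. Classic ETn copies carry no working viral genes and depend on the proteins of related, protein-coding MusD proviruses to move. Their insertions are a known source of new mutations in laboratory mice. Retroviruses of this class are known to be held down by DNA methylation and by repressive methylation of histones, and DAXX is a histone chaperone that works together with ATRX on such repeats.

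The data were RNA-sequencing libraries from mouse embryonic stem cells, prepared from cytoplasmic polyadenylated RNA. The 8 groups had 1 library each. One pair of lines was J1, with its DNA methyltransferases (DNMT) intact, and J1 DAXX-knockout. Another was TKO, in which 3 DNMTs are knocked out, and TKO DAXX-knockout. The genotype label of both J1 lines reads WT, so their DAXX status was taken from the sample titles. Each line was kept in regular stem cell medium ("regular") or treated for 72 hours ("2i"). The added compounds were PD0325901, a MEK inhibitor, at 1 µM, CHIR99021, a GSK3b inhibitor, at 3 µM, and 100 µg/ml of vitamin C. The labels do not say how many clones stand behind a line. The assembled loci carry no gene names, so neither stem cell markers nor the knocked-out genes were examined. Library totals were 67.4 M to 99.1 M reads, and levels are given as RPM, the reads in 1 M reads of a library. How reads that map to several copies were counted is not given in the sources used here. Early transposon copies resemble each other closely, so they are not independent and a family sum may count a read more than once.

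MMETn-int and ETnERV2-int were among the most abundant of the listed repeat families, and as a share of all reads their levels differed by at most 1.66-fold over the 8 libraries. In J1 cells ETnERV2-int was at 11784 RPM (regular) and 8853 RPM (2i), and at 13384 and 11717 with DAXX knocked out. In TKO cells it was at 10856 (regular) and 12587 (2i), and at 14692 and 10529 with DAXX knocked out. MMETn-int, in the same order, was at 9924, 8225, 11381, 10103, 9145, 10866, 12796 and 10349 RPM. Both families were lowest in J1 2i and highest in TKO DAXX-knockout regular. By mean RPM they ranked 3 and 4 of the 65 families. The 4 families together made up 1.71% of all reads in J1 2i and 2.76% in TKO DAXX-knockout regular. Of the reads in all listed repeats they were 10.4% in TKO regular and 25.3% in TKO DAXX-knockout 2i, the lowest and highest library by that share.

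ETnERV-int and ETnERV3-int were far less abundant. The 2 ETnERV-int copies together were at 60.6, 48.9, 78.6 and 77.6 RPM in the J1 libraries and at 54.0, 61.5, 74.4 and 58.7 in the TKO libraries, in the order above. ETnERV3-int was at 4.62, 5.02, 3.87 and 5.15 RPM in J1, with every TKO library higher, at 18.8, 7.93, 8.83 and 15.6. Per kb of listed sequence, mean levels over the 8 libraries were 110.1 RPKM for MMETn-int, 24.3 for ETnERV2-int, 5.36 for ETnERV-int and 0.135 for ETnERV3-int. The ranges over libraries of neighbours in that order do not overlap. The lowest MMETn-int level, 87.5 RPKM, lay above the highest ETnERV2-int level of 30.3, the lowest ETnERV2-int level of 18.2 above the highest ETnERV-int level of 6.56, and the lowest ETnERV-int level of 4.08 above the highest ETnERV3-int level of 0.292.

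**Figure D1:**
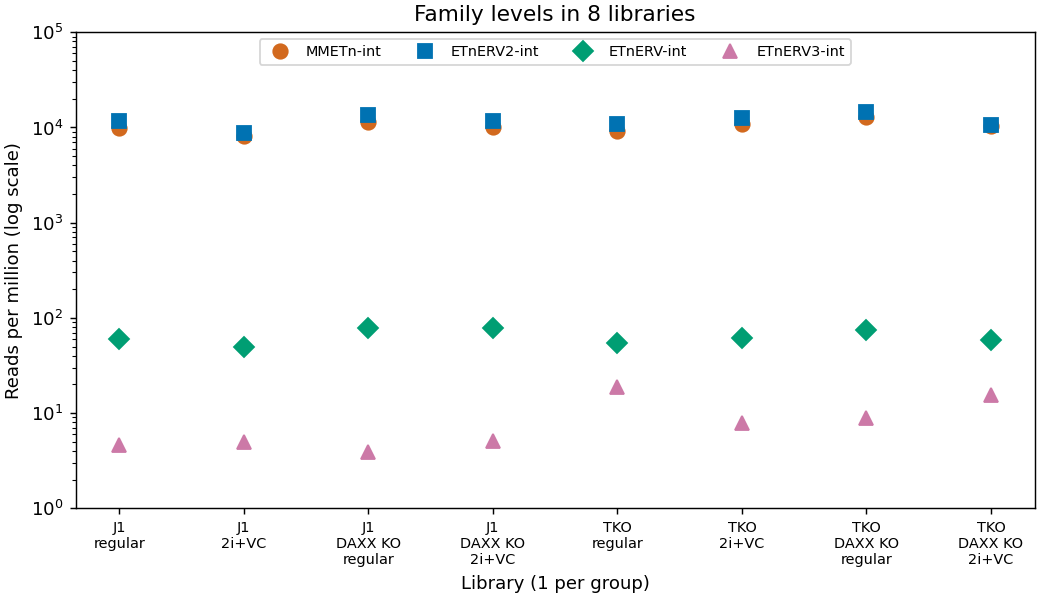
RPM (y, log scale) of the 4 families in each of the 8 libraries, 1 point per library. MMETn-int and ETnERV2-int stay between 8225 and 14692 RPM, and ETnERV3-int is higher in each of the 4 TKO libraries than in any J1 library.

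The highest library of MMETn-int exceeded the lowest 1.56-fold, that of ETnERV-int 1.61-fold and that of ETnERV2-int 1.66-fold. Among the 44 families with a mean of at least 1 RPM these were, on library totals, the smallest ranges after that of L1VL2, a LINE1 family at a mean of 2.44 RPM. The median range over the 44 families was 3.76-fold, and ETnERV3-int, at 4.85-fold, ranked 30 from the flattest. This order depends on the scale. With trimmed-mean scaling (TMM), which sets the typical repeat element near level between libraries and was applied to these ranges after the data were seen, the range was 3.94-fold for MMETn-int, 3.38-fold for ETnERV2-int, 3.78-fold for ETnERV-int and 6.91-fold for ETnERV3-int. The median family then had 2.54-fold, and the 4 families ranked 29, 24, 28 and 34 from the flattest. On that scale the lowest library of the first 3 was TKO regular and the highest TKO DAXX-knockout 2i. These ranks describe the libraries and carry no test.

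**Figure D2:**
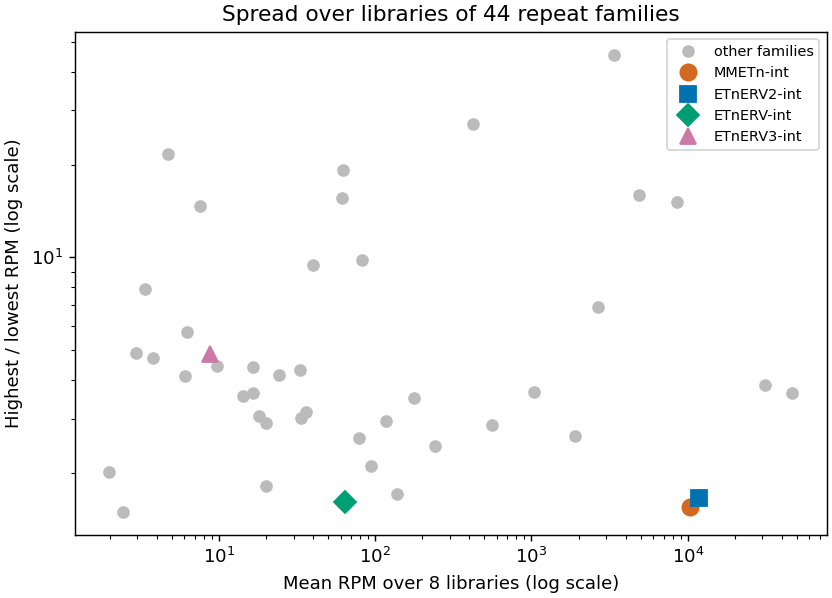
Mean RPM over 8 libraries (x, log scale) against the ratio of the highest to the lowest library on library totals (y, log scale) for 44 repeat families, with the 4 early transposon families in colour. MMETn-int, ETnERV2-int and ETnERV-int lie at 1.56, 1.66 and 1.61, and the median family at 3.76.

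Reads were spread over many copies in ETnERV2-int and MMETn-int and held by few in ETnERV3-int. Of the 105 elements, 70 had a mean RPKM of at least 0.1 and entered the element test, 51 of ETnERV2-int, 13 of MMETn-int, 4 of ETnERV3-int and both ETnERV-int copies. The others had a mean of at most 0.246 RPM. In ETnERV2-int the top 3 copies held 25.3% and the top 10 held 62.1% of the family's mean RPM, and 7 copies had 0 reads in all libraries. In MMETn-int, 12 of the 15 copies were at 457 to 1601 RPM on average and held 99.99% of the reads. The 3 others were at 1.24, 0.00306 and 0 RPM. A count of 0 allows up to 3 reads, or 0.0303 to 0.0445 RPM by library, for counting error only.

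The most abundant copy was an MMETn-int element on mm9 chromosome 12 from 77323649 to 77330106. It was at 1606, 1373, 1656 and 1470 RPM in the J1 libraries and at 1459, 1717, 1962 and 1562 in the TKO libraries, in the order above. Its share of the family's reads stayed between 14.5% and 16.7%. The next MMETn-int copies, on chromosome 11 from 19309456 to 19315895 and on chromosome 14 from 50222487 to 50228596, had means of 1222 and 976 RPM. The top ETnERV2-int copy, on chromosome 16 from 91248905 to 91255743, was at 1069, 787, 1148 and 956 RPM in J1 and at 1077, 1134, 1411 and 924 in TKO. It was followed by copies on chromosome 8 from 131270674 to 131277488, with a mean of 1038 RPM, and from 80663973 to 80670811, with one of 882. The stronger ETnERV-int copy, on chromosome 7 from 140720845 to 140727580, had a mean of 55.0 RPM, and the other, on chromosome 1 from 3264550 to 3269796, one of 9.31. Whether these copies lie in genes was not examined, since no annotation of mm9 was at hand.

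Copies with many reads were the longer ones. Of the 48 ETnERV2-int copies of at least 6000 bp, 45 had a mean of at least 10 RPM, and of the 29 shorter ones 1 did, at 35.3 RPM. The median level was 129 RPM in the longer and 0.00943 RPM in the shorter class. The 3 long copies with few reads were at 0.120, 0.0191 and 0.00325 RPM. In MMETn-int 14 of 15 copies were at least 6000 bp long, of which 12 were at 10 RPM or more, and the short one was at 1.24 RPM. ETnERV3-int shows no such division, with the 4 longer copies at 0.0106 to 5.02 RPM and the 7 shorter ones at 0.00163 to 1.45. The 6000 bp line was drawn after the values were seen, so these counts are a description.

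**Figure D3:**
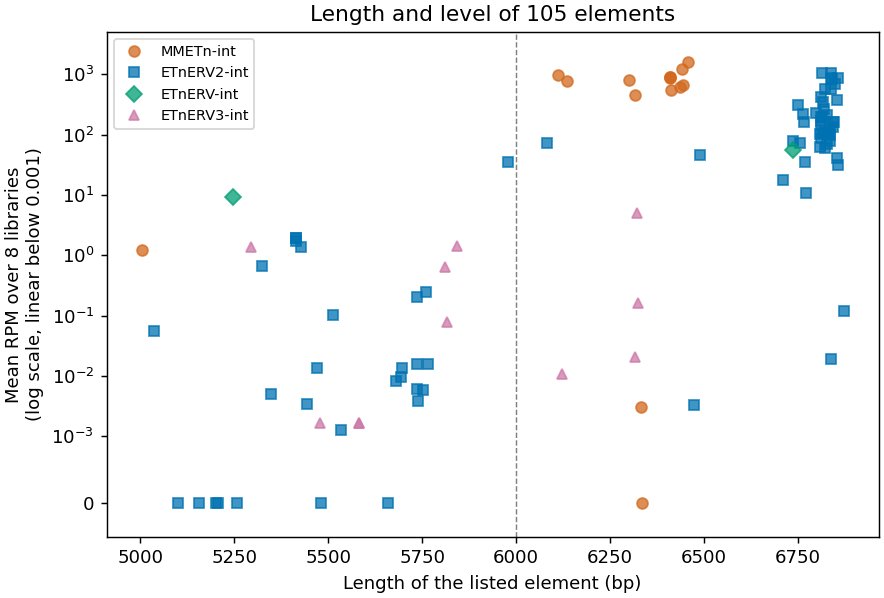
Length of each of the 105 listed elements (x, bp) against its mean RPM over 8 libraries (y, log scale, linear below 0.001). ETnERV2-int copies of at least 6000 bp (dashed line) lie at 10 RPM or more in 45 of 48 cases, and shorter ones in 1 of 29.

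Transcripts assembled by the authors overlapped 9 of the 70 tested copies (12.9%), the same share as of the 11252 other elements tested (12.9%). Of the 59 early transposon copies with a mean of at least 10 RPM, 3 overlapped an assembled locus in any library (5.08%), against 632 of 4103 other repeat elements at that level (15.4%). The top MMETn-int copy lay inside a locus of 25026 to 35386 bp in 3 libraries, at 4.55 to 9.94 FPKM. These were J1 DAXX-knockout 2i, TKO DAXX-knockout regular and TKO DAXX-knockout 2i. No locus lay over it in J1 DAXX-knockout regular or in any intact library. How many other elements had loci in knockout libraries only was not examined. The other 2 of the 3 copies overlapped loci in both intact and knockout libraries. An MMETn-int copy on chromosome 17 from 32507009 to 32513144 lay in loci of 3 DAXX-intact libraries and 1 knockout library, and an ETnERV2-int copy on chromosome 13 from 62052600 to 62059453 overlapped loci in 2 intact libraries and 1 knockout library. Among weaker copies, 2 of the 4 tested ETnERV3-int copies lay inside an assembled locus in all 8 libraries. These were the copy on chromosome 5 from 123989702 to 123995543, in loci of 44148 to 45794 bp at 8.57 to 19.6 FPKM, and the copy on chromosome 17 from 49581374 to 49587183, in loci of 25854 to 27342 bp at 3.93 to 9.67 FPKM. The ETnERV3-int copy on chromosome 13 from 65817006 to 65823326 lay inside loci of 157653 to 255948 bp in J1 2i, TKO 2i and TKO DAXX-knockout regular. These loci were at 2.00 to 7.29 FPKM, and none lay over it in the other libraries. The FPKM belong to the whole locus, and their part in the copies' reads was not tested.

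Most MMETn-int and ETnERV2-int copies followed the rest of their family over the libraries. The Pearson correlation of a copy with the rest of its family over the 8 libraries, on log2 RPM, had a median of 0.927 over 13 MMETn-int copies and 0.889 over 50 ETnERV2-int copies with a mean of at least 1 RPM. The lowest values were 0.384 in MMETn-int and −0.190 in ETnERV2-int. Over 3 ETnERV3-int copies it ran from −0.085 to 0.778. MMETn-int and ETnERV2-int themselves correlated at 0.939. These copies share libraries and possibly reads. Outside the 4 families, the most similar profiles to MMETn-int were those of MMERVK10C-int (0.823), RLTR4_MM-int (0.799) and MuLV-int (0.772), and to ETnERV2-int the same 3 at 0.842, 0.754 and 0.692. ETnERV-int was nearest to RLTR4_MM-int (0.743), MMERVK10C-int (0.673) and IAPEz-int (0.611). ETnERV3-int was nearest to Lx9 (0.788), IAPLTR3-int (0.735) and IAPEy-int (0.707), and its correlation with MMETn-int was −0.033.

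MMETn-int, ETnERV2-int and ETnERV-int were slightly higher in DAXX-knockout than in DAXX-intact cells in 3 of 4 pairs of libraries, by less than the test could tell from 0. MMETn-int had ratios of knockout to intact of 1.15 in J1 regular, 1.23 in J1 2i, 1.40 in TKO regular and 0.952 in TKO 2i, with log2 ratios of 0.23 ± 0.23 (SD of 4 pairs). ETnERV2-int had 1.14, 1.32, 1.35 and 0.836 in that order, and ETnERV-int 1.30, 1.59, 1.38 and 0.954. All 3 were below 1 in TKO 2i. ETnERV3-int was higher in 2 of 4 pairs, with ratios from 0.470 to 1.97.

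No early transposon family passed edgeR's quasi-likelihood test for DAXX, and of all 44 families 0% did, with 3 at an unadjusted p under 0.05 and none of those in these 4. DESeq2 and limma also called 0 of these 4 for DAXX. The fitted fold of MMETn-int was 1.17 with an approximate 95% interval from 0.728 to 1.87 and an adjusted p of 0.673. That of ETnERV2-int was 1.14 (0.703 to 1.84, adjusted p 0.673), that of ETnERV-int 1.28 (0.776 to 2.11, adjusted p 0.646) and that of ETnERV3-int 0.921 (0.498 to 1.70, adjusted p 0.811). The intervals lean on the spread of all families and do not show that DAXX left these families as they were. The median log2 change of the 4 families was 0.20, beside −0.32 over the 44 families and 0.48 over 6 other ERVK families, namely IAP-d-int, IAPEY3-int, IAPEy-int, IAPEz-int, IAPLTR3-int and MMERVK10C-int.

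Relative to IAPEz-int, a family of intracisternal A-particles, MMETn-int and ETnERV2-int were lower with DAXX knocked out in each pair. The ratio of MMETn-int to IAPEz-int RPM was 4.82, 2.72, 2.53 and 2.28 in J1 regular, J1 2i, TKO regular and TKO 2i, and 2.22, 0.323, 1.495 and 1.07 in the same order with DAXX knocked out. The mean change was log2 −1.51 ± 1.05 (SD of 4 pairs), lower in 4 of 4. ETnERV2-int gave log2 −1.55 ± 0.97, also lower in 4 of 4. Each had an exact two-sided permutation p of 0.0286, the smallest that 4 libraries against 4 can give, and a Benjamini-Hochberg adjusted p of 0.107 over the 15 ratios tested, so neither passed. Against MMERVK10C-int the changes were log2 −1.25 ± 0.58 for MMETn-int and −1.29 ± 0.52 for ETnERV2-int, lower in 4 of 4 pairs with overlapping groups, with exact permutation p of 0.2 and 0.171 and an adjusted p of 0.375 for both. The permutation does not use the pairs, so its p does not measure their spread. A ratio within a library does not depend on the library total. It shows unequal change and not which family changed. On library totals, IAPEz-int had ratios of knockout to intact of 2.49, 10.3, 2.36 and 2.04 in the same order. MMERVK10C-int had 2.43, 3.42, 5.29 and 1.39, and MMETn-int 1.15, 1.23, 1.40 and 0.952.

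**Figure D4:**
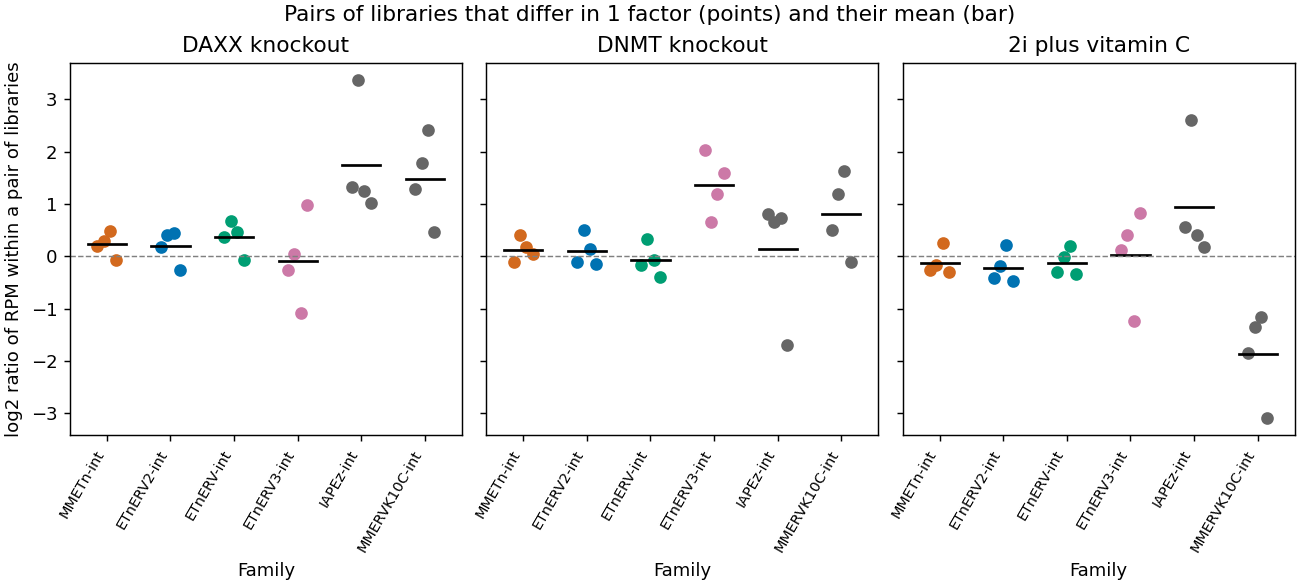
Log2 ratio of RPM in pairs of libraries that differ in 1 factor (points, 4 pairs for each factor) with their mean (bar), for the 4 early transposon families and for IAPEz-int and MMERVK10C-int. MMETn-int lies within 0.952 to 1.40-fold for DAXX, while IAPEz-int and MMERVK10C-int lie above 0 in 4 of 4 pairs.

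Of the 70 copies tested, 67 had a fitted change above 0 with DAXX knockout and 1 was called higher by edgeR. Of all 11322 elements 6.77% were called, 6.70% higher and 0.0618% lower. The median log2 change was 0.25 over the 70 copies and −0.45 over all elements. The called copy is an ETnERV2-int element on chromosome 13 from 7169216 to 7174539, 5324 bp long, with few reads. With DAXX intact its RPM were 0.143 and 0.0742 in J1 (regular and 2i) and 0.343 and 0.407 in TKO, and with DAXX knocked out 0.669, 1.86, 0.832 and 1.08 in the same order. Each knockout library was higher than any intact one. In reads these were 11, 5, 34 and 30 against 53, 171, 62 and 82. Its fold in the fit was 4.79 (adjusted p 0.0169, edgeR). It passed the filter on low values only through the knockout libraries, with a mean of 0.0454 RPKM in the intact and 0.208 in the knockout libraries, and with no filter the adjusted p was 0.0250. Short assembled loci lay over this copy in J1 DAXX-knockout 2i, TKO DAXX-knockout regular and TKO DAXX-knockout 2i. None lay over it in J1 DAXX-knockout regular or in the intact libraries. The call held in 10 of 15 alternatives. It was lost without J1 regular (adjusted p 0.292), J1 2i (0.403), J1 DAXX-knockout regular (0.0740), TKO 2i (0.277) or TKO DAXX-knockout regular (0.370).

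In 3 more copies, each chosen after its values were seen, the 4 knockout libraries stood clear of the 4 intact ones. Such separation in the upward direction was found in 4.40% of all elements and in 4 of these 70, a similar share. Downward it was found in 1.48% of all elements and 0 of the 70. The MMETn-int copy on chromosome 6 from 127464368 to 127470666 was at 736, 626, 558 and 689 RPM with DAXX intact and at 1168, 924, 912 and 795 RPM without, for a 1.44-fold change in the fit (adjusted p 0.0687, edgeR). Its share of MMETn-int reads was higher with the knockout in 4 of 4 pairs, by ratios of 1.17 to 1.38. An MMETn-int copy on chromosome 10 from 30620895 to 30627210 had 328 to 425 RPM with DAXX intact and 460 to 591 without, and an ETnERV2-int copy on chromosome 2 from 15115504 to 15122346 had 119 to 151 and 153 to 213. Both had an adjusted p of 0.650 in edgeR. The short MMETn-int copy on chromosome 15 from 37765312 to 37770315 was at 0.547, 0.594, 0.474 and 1.10 RPM with DAXX intact and at 1.67, 2.23, 0.832 and 2.44 without. It was higher in 4 of 4 pairs with overlapping groups, for a 2.59-fold change in the fit (adjusted p 0.0930, edgeR).

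The effect of DAXX was also fitted within J1 and within TKO, which differ in their DNMTs. DNA methylation itself was not examined, and each fit covers both media. In J1 the fitted log2 changes were 0.25 for MMETn-int, 0.29 for ETnERV2-int, 0.52 for ETnERV-int and −0.096 for ETnERV3-int, with adjusted p from 0.853 to 0.969 in edgeR, where 0% of 44 families were called. In TKO they were 0.20, 0.079, 0.19 and −0.14, with adjusted p from 0.638 to 0.832, and 2.27% of the families were called, all lower. The difference between backgrounds was −0.048, −0.21, −0.32 and −0.048, with adjusted p from 0.591 to 0.976.

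How TKO reads depends on the scale. On library totals the median change over elements with DAXX knockout in TKO was log2 −1.18, and TMM raised all repeats there by log2 1.14. On that scale the changes in TKO were 1.35 for MMETn-int, 1.22 for ETnERV2-int, 1.35 for ETnERV-int and 1.15 for ETnERV3-int. ETnERV-int was then called (adjusted p 0.0361, edgeR), and MMETn-int missed the threshold (0.0583). The share of all tested families called in TKO on the TMM scale was not counted. The call of ETnERV-int therefore cannot show whether this family moved apart from other repeats. On library totals the fits in TKO average pairs that went opposite ways, higher in regular medium and lower in 2i for the first 3 families and the reverse for ETnERV3-int. These counts cannot tell the scales apart.

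Between TKO and J1, which differ in their DNMTs, edgeR called 1 of the 4 families on library totals, a call lost under 3 other scalings (below). ETnERV3-int rose in TKO, 2.75-fold in the fit (approximate 95% interval 1.48 to 5.08, adjusted p 0.0341, edgeR), where 11.4% of the 44 families were called higher. Its ratios of TKO to J1 were 4.07 in regular medium, 1.58 in 2i, and 2.28 and 3.03 with DAXX knocked out, with log2 ratios of 1.37 ± 0.58 (SD of 4 pairs). In 18.2% of the 44 families all TKO libraries lay above all J1 libraries. MMETn-int had ratios of 0.922, 1.32, 1.12 and 1.02 and a fitted fold of 1.09 (0.683 to 1.75), and ETnERV2-int 0.921, 1.42, 1.10 and 0.899 and a fitted fold of 1.07 (0.664 to 1.73). ETnERV-int had a fitted fold of 0.949 (0.576 to 1.56). Each of these 3 had an adjusted p of 0.970 in edgeR, which does not show that they were unchanged.

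Most of the rise of ETnERV3-int lay in a single copy. An element on chromosome 13 from 65817006 to 65823326 held 57.5% of the family's mean RPM. By library its share was 22.8% to 49.4% in J1 and 54.7% to 77.6% in TKO, with or without DAXX. Its RPM were 1.76 and 2.48 in J1 (regular and 2i) and 0.883 and 2.17 in J1 DAXX-knockout, against 11.2 and 4.34 in TKO and 5.21 and 12.1 in TKO DAXX-knockout. Every TKO library was above every J1 library. In J1 2i, TKO 2i and TKO DAXX-knockout regular this copy lay inside a long assembled locus, whose part in its reads was not tested. Its fold in the fit was 4.79 (adjusted p 0.00236, edgeR). With this copy left out, the log2 change of the family fell from 1.46 to 0.62, with an adjusted p of 0.416. The copy was picked for its highest mean RPM, to which its TKO levels add most, so part of this fall follows from the choice. Another copy on chromosome 13, from 65544882 to 65550175, was at 4.75 RPM in TKO regular and between 0.594 and 1.38 in the other 7 libraries. The copy on chromosome 5 was at 0.971 to 1.88 RPM in all 8 libraries, lower in 2i in 4 of 4 pairs, and had a fitted fold of 1.03 for TKO.

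The family's call was lost without TKO regular (adjusted p 0.123), TKO DAXX-knockout 2i (0.0997), J1 regular (0.103), J1 2i (0.0702) or J1 DAXX-knockout regular (0.172). It was also lost with LINE1 scaling (0.166), TMM (0.146) and median scaling (0.169). These 3 scalings all rest on reads in listed repeats and nearly coincide, so they are not separate checks. Their factors relative to the library total were 1.84 to 1.97 in TKO regular and 0.527 to 0.537 in TKO DAXX-knockout 2i. The change on the log2 scale stayed between 1.08 and 1.71 when any library was left out. The call of the leading copy was lost without TKO regular (0.383), J1 regular (0.122) or J1 DAXX-knockout regular (1.00), and under the same 3 scalings.

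Among single copies, 3 of the 70 were called higher in TKO and 0 lower, where 0.609% of all 11322 elements were called, 0.583% higher and 0.0265% lower. Beside the ETnERV3-int copy these were 2 ETnERV2-int copies on chromosome 12, from 23593415 to 23598827 and from 24245929 to 24251341. They belong to 4 copies of 5413 or 5428 bp between 18919255 and 24251341 on that chromosome, which has 5 of the 77 ETnERV2-int elements. All 4 had every TKO library above every J1 library, and they may share reads. Such a separation was found upward in 0.521% of all elements and in 5 of the 70, and downward in 0.0353% and 0 of the 70. Their summed level was 1.89 and 4.01 RPM in J1 (regular and 2i) and 2.70 and 3.93 in J1 DAXX-knockout. In TKO it was 6.61 and 8.69, and in TKO DAXX-knockout 6.03 and, in the highest library, 21.97. In edgeR the called copies rose 3.75-fold (adjusted p 0.0236) and 3.66-fold (adjusted p 0.0249), and the other 2 had adjusted p of 0.238 and 0.465. Leaving out any library but J1 DAXX-knockout 2i ended both calls, with adjusted p from 0.0840 to 0.867, as did TMM, with 0.185 and 0.210. Their log2 changes stayed at 1.55 to 2.14 over the omitted libraries. These copies did not follow their family, with correlations of −0.190 to −0.056 with the rest of ETnERV2-int.

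**Figure D5:**
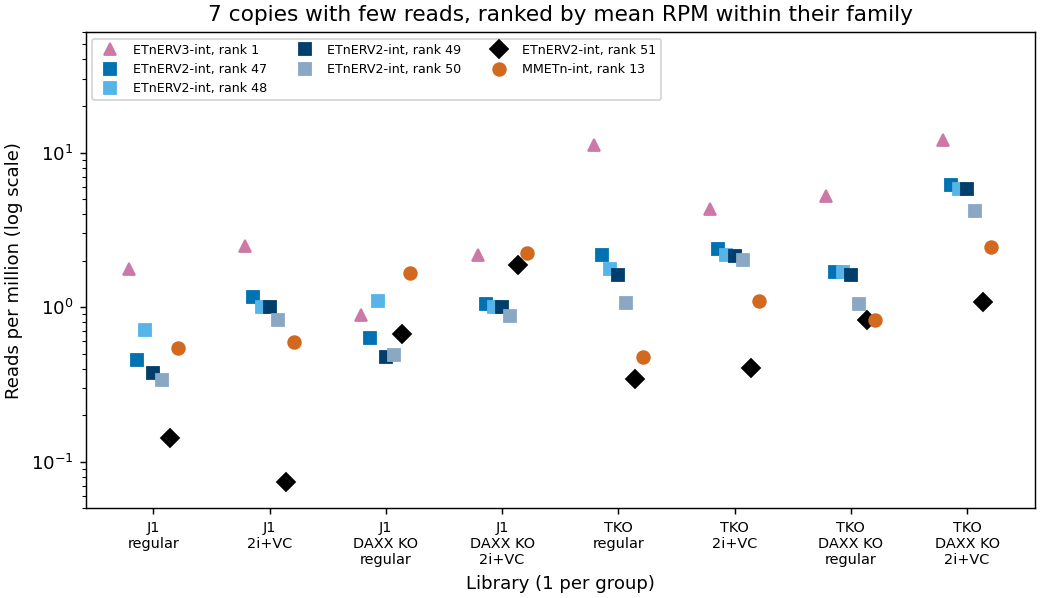
RPM (y, log scale) in each of the 8 libraries of 7 copies with few reads, named by family and by rank of mean RPM within it. ETnERV3-int rank 1 and ETnERV2-int ranks 47 to 50 (the chromosome 12 copies) are higher in every TKO library, and ETnERV2-int rank 51 (chromosome 13) in every DAXX-knockout library.

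In the comparison of media no early transposon family passed the test. MMETn-int, ETnERV2-int and ETnERV-int were lower in 2i in 3 of 4 pairs and higher in TKO with DAXX intact, and ETnERV3-int was lower in that pair and higher in the other 3. MMETn-int had ratios of 2i to regular medium of 0.829 in J1 and 1.19 in TKO with DAXX intact, and of 0.888 in J1 and 0.809 in TKO with DAXX knocked out. ETnERV2-int had 0.751, 1.16, 0.875 and 0.717 in that order, ETnERV-int 0.808, 1.14, 0.987 and 0.788, and ETnERV3-int 1.09, 0.422, 1.33 and 1.77. In edgeR the adjusted p were 0.846 for 3 of them and 0.932 for ETnERV3-int, where 9 of the 44 families and 0 of these 4 had an unadjusted p under 0.05. Of the 44 families 15.9% were called, 4.55% higher and 11.4% lower. The fitted folds were 0.918 (approximate 95% interval 0.573 to 1.47) for MMETn-int, 0.864 (0.535 to 1.40) for ETnERV2-int, 0.927 (0.563 to 1.53) for ETnERV-int and 1.02 (0.554 to 1.90) for ETnERV3-int. Of the 70 copies edgeR called 0, and 3 had an unadjusted edgeR p under 0.05, as had 1010 of all 11322 elements. DESeq2 called 2 of the 70, both higher, and its share over all elements was not counted. Of all elements edgeR called 5.21%, 0.495% higher and 4.72% lower. All 2i libraries lay below all regular ones in 1 of the 70 copies, the ETnERV3-int copy on chromosome 5, and in 0.601% of all elements, and above them in 0 of the 70 and 0.168% of all.

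MMERVK10C-int, the family outside these 4 with the profile most like MMETn-int and ETnERV2-int, fell in 2i to between 0.117 and 0.446 of its level in regular medium (adjusted p 0.00992, edgeR). The ratio of MMETn-int to MMERVK10C-int was higher in 2i by log2 1.74 ± 0.72 (SD of 4 pairs) and that of ETnERV2-int by 1.65 ± 0.65, each higher in 4 of 4 pairs. Each had an exact two-sided permutation p of 0.0286 and an adjusted p of 0.107 over the 15 ratios tested. Against IAPEz-int the same families went the other way, lower in 2i in 4 of 4 pairs, with changes of log2 −1.06 ± 1.18 and −1.15 ± 1.14, with exact permutation p of 0.257 and 0.2 and adjusted p of 0.429 and 0.375. Across the lines, in the same order, the ratio of MMETn-int to ETnERV2-int was 0.842, 0.842, 0.850 and 0.871 in regular medium, and 0.929, 0.863, 0.862 and 0.983 in 2i. It was higher in 2i in 4 of 4 pairs with overlapping groups, and its exact permutation p was 0.0857, with an adjusted p of 0.257.

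Interactions of DAXX or DNMT with the medium gave no call in any of the 44 families in edgeR (0%). The largest among these 4 families was ETnERV3-int, where the DAXX effect was larger in 2i than in regular medium by a fitted log2 1.18 with an approximate 95% interval from −0.79 to 3.15 and an adjusted p of 0.967. With 1 library per group, those fits leave 3 residual degrees of freedom. edgeR used a spread shared by all families here, so the p and interval do not measure the spread of this family alone.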

How the data were processed

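The table of repeats gives, per the file headers, read counts and RPKM of mm9 repeat elements in 8 libraries, all at least 5001 bp long, deposited by the authors, and the other files give FPKM of loci assembled in each library by the authors. TopHat, Bowtie2 2.2.4, Cufflinks and Cuffdiff are named in the submitters' processing notes, and the counter and the treatment of reads mapping to several copies are not given in the sources used here. Library totals (67.4 M to 99.1 M reads) were recovered from count, length and RPKM, which gave back 100% of the deposited RPKM to within 0.011. RPKM use end minus start as the length, so positions were read as half-open and starts are printed with 1 added.

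Counts per element (mean RPKM of at least 0.1) and per family (mean RPM of at least 1) were tested with edgeR 4.0.16 (quasi-likelihood, R 4.3.3) on the recovered totals. DAXX, DNMT and medium were fitted together over the 8 libraries (4 residual degrees of freedom), with Benjamini-Hochberg adjustment over all features at 0.05, two-sided. There are no replicates, so the p-values rest on the spread between pairs of libraries, which holds interactions as well as noise. edgeR shares this spread between features. In the element tests it was almost wholly the spread shared over all elements tested. The p of a copy therefore does not measure the spread of that copy's own pairs. Intervals of fitted folds were derived from the F statistic and are approximate. Ratios of families within a library were tested by exact permutation, 4 libraries against 4, without regard to the pairs. These tests were added after the data were seen. The alternatives used DESeq2 1.42.0, limma 3.58.1 on log2 values with a pseudocount of 0.1 or 1, other scalings, filters, omitted libraries and omitted copies. The edgeR test was also run on simulated counts with a fixed spread, a DAXX effect only and no interactions or shared reads. That setting differs from these data, so it does not show how the test behaves here. Named items were the 4 families, the top 3 copies of each, and up to 3 called copies each way per factor. Other named copies were chosen after their values or loci were seen. The families, lists and rules were chosen with earlier results of these data known. Sequences are not printed, because no mm9 genome was at hand. Files were read with pandas 2.3.3 in Python 3.11.15.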

Additional observations from a re-analysis of the deposited data

How the results depend on the processing

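On the TMM scale the median element lay higher than on library totals by log2 0.44 with DAXX knockout, 0.23 in 2i, 1.14 with DAXX knockout in TKO and 1.41 in the difference of DAXX between backgrounds, and for DNMT its shift was −0.14. The log2 changes of the 4 families for DAXX were above 0 under TMM, median scaling and LINE1 scaling, ETnERV3-int turning from −0.12 to 0.39, 0.41 and 0.40. For the medium they turned under TMM, median scaling and LINE1 scaling to 0.17, 0.20 and 0.20 for MMETn-int, 0.058, 0.097 and 0.088 for ETnERV2-int and 0.16, 0.20 and 0.19 for ETnERV-int, and ETnERV3-int was at −0.35 without its top copy. For DNMT they turned to −0.024, −0.056 and −0.029 for MMETn-int and −0.048, −0.078 and −0.051 for ETnERV2-int, and ETnERV-int was at 0.020 without its top copy. None of these passed the threshold. TMM, median scaling and LINE1 scaling all rest on repeat reads and nearly coincide, so they are not separate checks. ETnERV3-int for DNMT was no longer called under TMM (1.34), median scaling (1.29), LINE1 scaling (1.33) or without its top copy (0.62). The difference of DAXX between backgrounds turned under TMM, median scaling and LINE1 scaling to 1.29, 1.25 and 1.30 for MMETn-int, 1.13, 1.08 and 1.14 for ETnERV2-int, 1.03, 0.99 and 1.04 for ETnERV-int and 1.48, 1.47 and 1.51 for ETnERV3-int, for which limma gave 0.048 and 0.029. DAXX in TKO turned to 1.15, 1.16 and 1.18 for ETnERV3-int, and its DNMT by medium term to 0.52, 0.55 and 0.55.

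Of the 70 copies, 1 was called higher with DAXX knockout, 2 with no filter, TMM, median scaling, LINE1 scaling or limma at a pseudocount of 0.1, and 3 with DESeq2 or limma at 1. For DNMT 3 became 5 with DESeq2 and 0 with the other scalings or the stricter filter, and for the medium 0 became 2 with DESeq2. Leaving out 1 library gave 0 to 2, 0 to 4 and 0 to 3 copies called higher for DAXX, DNMT and medium, and 0 to 4 called lower for the medium. The share of all elements called in each of these settings was not counted. These counts therefore cannot show whether the early transposon copies moved apart from other elements. The log2 changes over omitted libraries, with the families in the order MMETn-int, ETnERV2-int, ETnERV-int and ETnERV3-int, were for DAXX 0.14 to 0.33, 0.11 to 0.33, 0.27 to 0.48 and −0.41 to 0.22. For DNMT they were 0.024 to 0.21, −0.042 to 0.19, −0.20 to 0.015 and 1.08 to 1.71, and for the medium −0.23 to −0.075, −0.35 to −0.13, −0.24 to −0.021 and −0.18 to 0.35. For DAXX by DNMT they were −0.29 to 0.21, −0.49 to 0.082, −0.53 to −0.12 and −0.78 to 0.92, and for DAXX in TKO −0.042 to 0.46, −0.20 to 0.38, −0.0061 to 0.40 and −0.89 to 0.80. For DNMT by medium they were −0.0065 to 0.39, −0.13 to 0.47, −0.20 to 0.37 and −1.24 to 0.26. ETnERV2-int and ETnERV-int had −0.51 to 0.039 and −0.39 to 0.15 for DAXX by medium, and ETnERV3-int −0.36 to 0.14 for DAXX in J1. The ratio of the highest to the lowest library under TMM, median scaling and LINE1 scaling was 3.94, 4.15 and 4.14 for MMETn-int, in place of 1.56. ETnERV3-int is not among the families past the stricter filter. The causes of these changes were not tested. With 1 library per group there are no replicates, and a low count limits the copies under 10 RPM most.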
